A study of Drosophila melanogaster with 3 samples.

Results

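MicroRNA genes of Drosophila melanogaster were examined for nearby binding of CG32006, a protein for which RefSeq gives FoxJ1, a forkhead transcription factor name, as a synonym. The members are the Ensembl genes of the arms 2L, 2R, 3L, 3R, 4 and X whose symbol begins with mir-, among them let-7 (mir-let7 in the annotation) and bantam (mir-ban). They numbered 260 of 17683 named genes other than transposable elements, and hairpins on one strand within 10 kb of each other formed 203 loci. A member was called near when a peak summit lay within 2 kb of its hairpin gene, which was 92 bp long at the median (range 50 to 174).

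The peaks came from chromatin immunoprecipitation with sequencing of whole prepupae, pooled male and female, from one transgenic line that stably expressed CG32006 with GFP fused to its C-terminus, pulled down with an antibody against GFP. There was 1 group, CG32006-GFP prepupae, with 3 biological replicates, and no second genotype or treatment. The stage is taken from the label prepupa, because the labelled age of 48 days cannot be that of this stage. In whole animals, a site bound in few cells and one bound weakly in many cannot be told apart.

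MicroRNAs are cut from hairpins in longer primary transcripts by Drosha with Pasha in the nucleus and by Dicer-1 with Loquacious in the cytoplasm, and then guide AGO1 to messenger RNAs matched by the seed, bases 2 to 8 of the mature strand. Some primary transcripts are long non-coding RNAs of their own and some are introns of protein-coding genes, so the promoter that drives a hairpin can lie far from it. In the fly, let-7 is made with mir-100 and mir-125 from 1 transcript that ecdysone switches on as larval life ends, and it acts in the remodelling of muscle and nerve at metamorphosis. Bantam promotes growth and blocks cell death through the pro-apoptotic gene hid.

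The mature strands of members on which the results turn are given from RefSeq annotation of the Release 6 genome, with the seed in capitals, so that hairpins of 1 family can be recognised. All 260 members had a mature product there. The first lines are the let-7 transcript's 3 microRNAs and bantam, the developmental regulators described in most detail.
mir-let7, 5′ arm: uGAGGUAGuagguuguauagu
mir-100, 5′ arm: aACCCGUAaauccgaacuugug
mir-125, 5′ arm: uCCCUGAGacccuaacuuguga
mir-ban, 3′ arm: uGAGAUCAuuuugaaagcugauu
The next pair carry the strongest peak of the set and share a seed.
mir-279, 3′ arm: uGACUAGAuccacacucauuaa
mir-996, 3′ arm: uGACUAGAuuucaugcucgucu
The pair hosted by jigr1 have the seed of the mir-92 family, to which mir-310, mir-311, mir-312 and mir-313 also belong.
mir-92a, 3′ arm: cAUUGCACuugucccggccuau
mir-92b, 3′ arm: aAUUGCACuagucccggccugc
Hairpins of 2 clusters share the seed of the mir-2 family, which represses pro-apoptotic genes.
mir-2a-1, 3′ arm: uAUCACAGccagcuuugaugagc
mir-2b-2, 3′ arm: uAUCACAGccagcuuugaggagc
mir-2c, 3′ arm: uAUCACAGccagcuuugaugggc
mir-13a, 3′ arm: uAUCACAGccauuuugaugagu
A single member and 1 cluster complete the set, shown because their peaks are described below.
mir-282, 5′ arm: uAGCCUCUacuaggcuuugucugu
mir-275, 3′ arm: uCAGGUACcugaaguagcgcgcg
mir-305, 5′ arm: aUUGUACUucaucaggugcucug

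The DNA under 4 summits follows, on the plus strand of dm6, reaching 50 bp to either side of the summit. They are the strongest summit in the let-7 primary transcript, the strongest near bantam, and the 2 strongest near any member.
lncRNA:let7C, chr2L:18456208-18456308: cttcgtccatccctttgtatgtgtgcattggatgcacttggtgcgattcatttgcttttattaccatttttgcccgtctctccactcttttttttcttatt
mir-ban, chr3L:640708-640808: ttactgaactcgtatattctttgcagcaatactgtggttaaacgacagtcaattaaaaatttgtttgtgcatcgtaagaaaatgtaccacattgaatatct
mir-279, chr3R:29214389-29214489: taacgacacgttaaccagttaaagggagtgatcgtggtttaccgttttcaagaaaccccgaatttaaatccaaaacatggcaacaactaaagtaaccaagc
mir-282, chr3L:3250179-3250279: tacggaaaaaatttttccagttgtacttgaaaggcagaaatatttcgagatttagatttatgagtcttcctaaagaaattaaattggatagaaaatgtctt
None of these 4 windows held TGTTTAC or TGTTTAT, the motifs searched for forkhead proteins, or TCGATA, searched for the insulator protein BEAF-32, on either strand.

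Summits lay near 49 of the 260 microRNA genes in the optimal list, the authors' 11665 peaks thresholded on reproducibility, or 18.8% (Wilson 95% interval 14.6 to 24.0). In the replicates' own lists, each reduced to its 11665 strongest peaks, 58, 52 and 55 members were near, which gave 21.2% ± 1.15 (SD, n = 3). Other small non-coding genes (tRNA, snoRNA and snRNA genes of at most 200 bp) were near in 158 of 578 cases, or 27.3%, and in 26.6%, 26.8% and 34.1% of cases in replicates 1, 2 and 3. Of all positions taken every 100 bp along the 6 arms, 22.7% had an optimal summit within 2 kb. The share of microRNA genes was thus close to that of any stretch of the genome, and lower than that of the other small RNA genes in each of the 3 lists. The microRNA share minus that of the other small RNA genes was -4.34, -6.82 and -12.9 percentage points in the 3 lists, with a mean of -8.03 ± 4.42 points (SD, n = 3). An exact sign-flip permutation test (two-sided) gave p = 0.25, the smallest value that 3 lists allow. With optimal peaks kept only where both other replicates had them, the difference, -8.49 points in the full optimal list, was -3.67, -3.28 and -3.45 points without replicates 1, 2 and 3. Hairpins of a cluster share peaks, so the intervals cover counting error only.

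**Figure D1:**
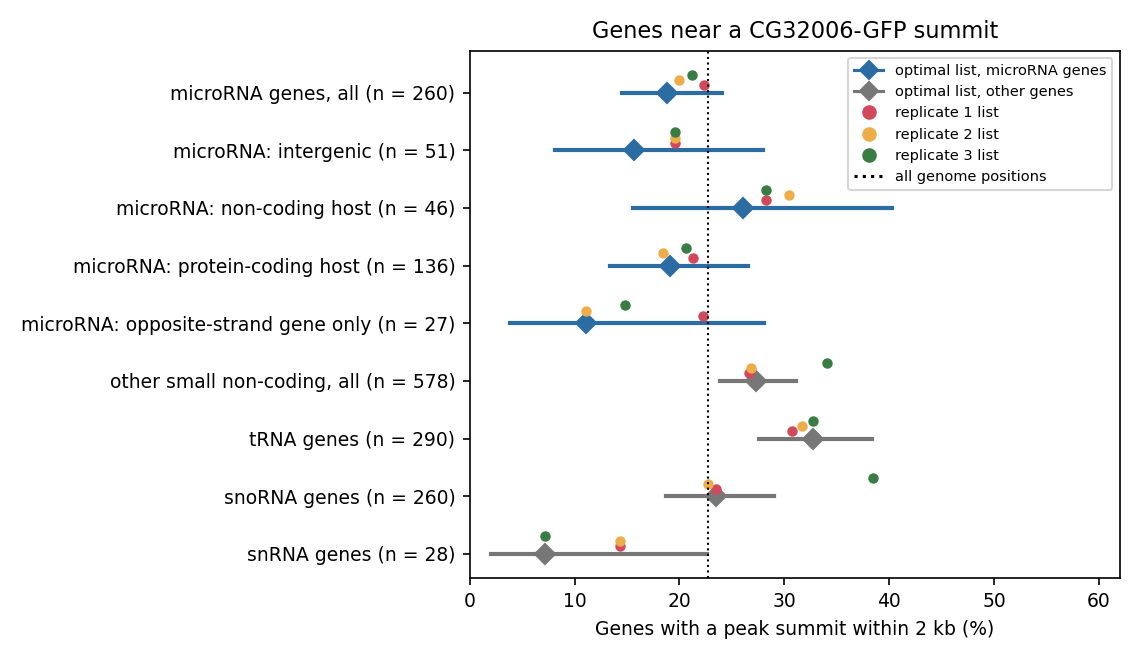
Percentage of genes with a summit within 2 kb (horizontal axis), for microRNA genes by class and, below them, other small non-coding genes; diamonds with bars are the optimal list with Wilson 95% intervals, dots are the 3 replicate lists, and the dotted line is the 22.7% of all genome positions. The microRNA genes with a non-coding host stand right of the other microRNA classes in all 3 replicate lists, and the replicate 3 value of snoRNA genes, 38.5%, lies apart from the other lists' values for that class.

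The comparison set was uneven. tRNA genes were near in 95 of 290 cases (32.8%), snoRNA genes in 61 of 260 (23.5%) and snRNA genes in 2 of 28 (7.14%). The microRNA share was therefore above that of snRNA genes and below that of the other 2 classes. At the median, the microRNA genes lay 8009.5 bp from a summit and the other small RNA genes 4445 bp. The near members lay 848 bp from a summit at the median, 12 of them within 500 bp and 2 within 100 bp.

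**Figure D2:**
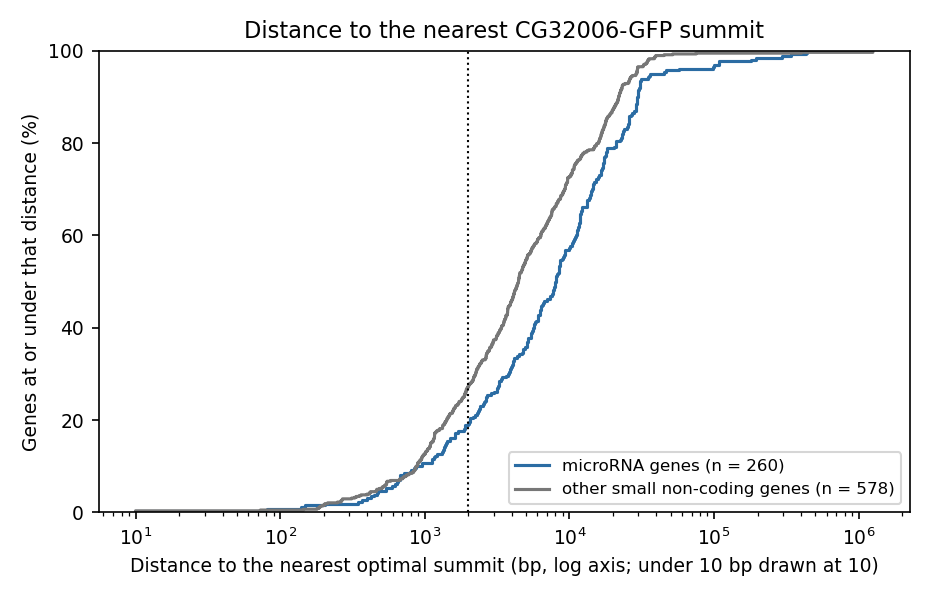
Cumulative percentage of genes (vertical axis) against the distance to the nearest optimal summit in bp (logarithmic horizontal axis), for 260 microRNA genes and 578 other small non-coding genes; the dotted line marks 2 kb. The curves run together below about 1 kb and the microRNA curve lies to the right beyond it, with medians of 8009.5 and 4445 bp.

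Intergenic microRNA genes, those with no other gene over the hairpin on either strand, were near in 8 of 51 cases (15.7%, interval 8.17 to 28.0). Members inside another gene on the same strand were near in 38 of 182 cases (20.9%, interval 15.6 to 27.4), and members lying only over a gene of the opposite strand in 3 of 27 (11.1%). In the replicate lists, 10, 10 and 10 intergenic members were near, against 42, 39 and 41 members with a host gene. The intergenic share minus the host-gene share was -3.47, -1.82 and -2.92 points, with a mean of -2.74 ± 0.839 (SD, n = 3). The sign was the same in each list, with exact sign-flip permutation p = 0.25 (two-sided), the smallest possible, and the optimal-list intervals overlapped over most of their length. The 8 intergenic members were mir-310, mir-311, mir-312 and mir-313, which share 1 peak, with mir-2496, mir-305, mir-955 and mir-287.

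Among host-gene members, those inside a non-coding RNA gene were near in 12 of 46 cases (26.1%) and those inside a protein-coding gene in 26 of 136 (19.1%). This split was added after the values were seen. The non-coding minus protein-coding share was 6.94, 12.1 and 7.67 points in the 3 lists (mean 8.89 ± 2.77, SD, n = 3; exact sign-flip permutation p = 0.25, two-sided, the smallest possible). By arm, 13 of 56 members were near on 2L, 12 of 55 on 2R, 6 of 31 on 3L, 10 of 58 on 3R, 0 of 2 on 4 and 8 of 58 on X. The share of positions or of other genes near a summit was not taken by arm. These counts therefore cannot be told apart from differences in summit density between arms.

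Of the 49 near members, 43 (87.8%) also had a summit within 2 kb in all 3 replicate lists, 5 in 2 of them and 1, mir-967 inside bun, in 1. Among the near small RNA genes of the other classes the share in all 3 lists was 65.8%. Those genes are clustered too, 578 genes in 294 loci, so neither share counts separate observations, and recurrence was not compared by locus. Another 17 microRNA genes had a summit within 2 kb in 1 or 2 replicate lists and not in the optimal list, among them mir-14, which tunes the ecdysone receptor gene EcR, and the muscle microRNA mir-1. The optimal list was made from the same reads as the replicate lists, and every list was called against a control, so recurrence is not an independent check.

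The signal in column 7 is the authors' own value for each peak, on a scale the sources do not state, and is used only to rank peaks within a list. The 62 distinct summits near microRNA genes had signals between 214 and 5525, with a median of 550 against 443 for the whole optimal list. That median stood at the 59.8th percentile of the optimal list, and at 52.1, 57.9 and 55.8 in the replicate lists (55.3 ± 2.93, SD, n = 3). Of the 62, 39 were above the list's median, 4 (6.45%) were in its strongest 10% and 3 in its weakest 10%. Most peaks near microRNA genes were thus of middling strength within the list. The strongest summit lay upstream of the hairpin in 33 members and downstream in 16. These members shared 40 distinct strongest peaks, and the split was not taken for the other small RNA genes.

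mir-279, which limits JAK/STAT signalling in the ovary and the number of carbon dioxide-sensing neurons, had the strongest peak. Its signal was 5525, rank 41 of 11665 in the optimal list, and the strongest peak within 2 kb ranked 44, 44 and 35 of 30000 in replicates 1, 2 and 3, with signals of 1533, 2048 and 1951. The summit stood 1146 bp upstream of the hairpin (chr3R:29215585-29215684, plus strand) and 123 bp from the annotated start of lncRNA:CR31044, the transcript that contains mir-279 and mir-996. mir-996, whose seed is the same, lay farther along that transcript, and its strongest summit within 2 kb had a signal of only 449 (rank 5765). The strong peak thus marks the start of the shared transcript and falls within 2 kb of only the first hairpin.

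mir-282 came next, with a signal of 3468 (rank 213) and ranks of 213, 254 and 177 in the 3 replicate lists. Its summit was 793 bp upstream of the hairpin and 365 bp from a start of lncRNA:CR43626, its host transcript. mir-8, the fly relative of vertebrate miR-200 that sets body growth through the fat body, showed the same arrangement at lower strength. Its signal was 1123 (rank 1962; 2326, 2022 and 1811 in the replicate lists) at 848 bp upstream, 105 bp from a start of its host lncRNA:CR43650. In mir-279, mir-282 and mir-8 alike, the strongest summit within 2 kb was thus also one within 500 bp of a start of the non-coding host. The rest of the 12 near members with a non-coding host did not share this arrangement. The hosts of mir-375, of mir-276b and of mir-2c, mir-13a and mir-13b-1 had no summit within 500 bp of a start. For bantam, mir-275, mir-31b and mir-996, the strongest summit within 2 kb was not the one at the host start.

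**Figure D3:**
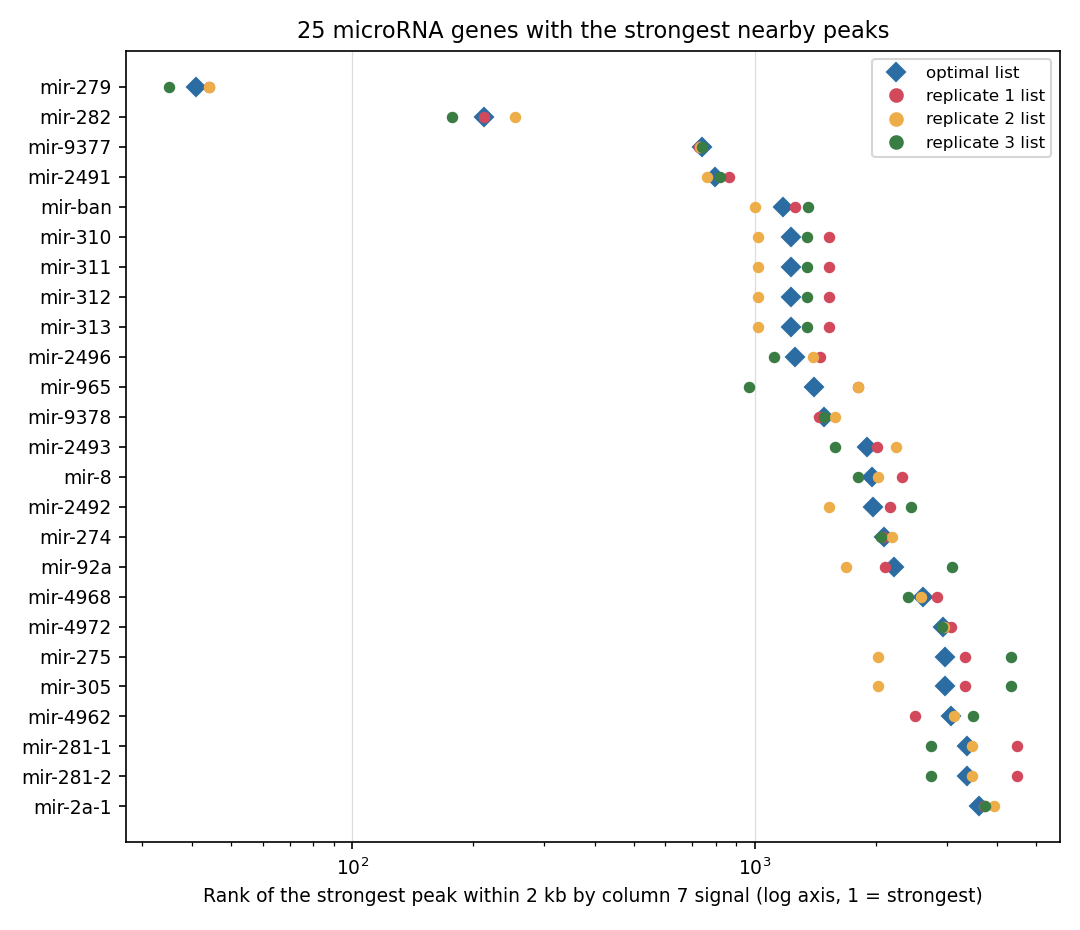
Rank of the strongest peak within 2 kb by column 7 signal (logarithmic axis, 1 is the strongest) for the 25 near microRNA genes with the highest optimal signal; diamonds are the optimal list and dots the 3 replicate lists. mir-279 (35 to 44) and mir-282 (177 to 254) stand apart from the rest, and mir-310, mir-311, mir-312 and mir-313 share 1 peak.

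Bantam was near 2 summits. The stronger had a signal of 1548 (rank 1175) at 1450 bp upstream of the hairpin (chr3L:642208-642288, plus strand), and the peak there ranked 1263, 1004 and 1360 in the replicate lists, with signals of 436, 589 and 520. The other had a signal of 1073 (rank 2097) at 348 bp downstream. Stronger peaks of the locus lay outside the limit. One with a signal of 3083 (rank 288; 343, 230 and 300 in the replicates) stood just outside it, 2023 bp downstream, and one of 3750 (rank 163; 202, 98 and 229) stood 5604 bp upstream. Both ranked above the near summits in each replicate list. The host transcript lncRNA:CR43334 (chr3L:628435-643900) held 10 optimal summits, and its nearest annotated start was 499 bp from a summit of signal 578.

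The let-7 hairpins were not near any optimal summit. The nearest was 3274 bp from mir-100, 3874 bp from mir-let7 and 4155 bp from mir-125, all upstream, with a signal of 741 (rank 3382), and in the replicate lists it stood 3837, 3818 and 3866 bp from mir-let7 with ranks of 3529, 3165 and 3034. Among the 11665 strongest peaks of each replicate, nearer summits stood in replicate 1 (3230 bp, rank 7565) and replicate 2 (3207 bp, rank 7960), beyond the limit. Weaker rows of the full lists of 30000 did fall within 2 kb. Replicate 3 had rows at 1780 bp (rank 28044) and 1993 bp (rank 19488) from mir-let7 and at 1180, 1393 and 1942 bp from mir-100. Replicate 1 had a row at 1841 bp from mir-100 (rank 16463) and one at 1942 bp from mir-125 (rank 21430), and the pooled list had rows at 1659 and 1865 bp from mir-100. Each of these rows had a −log10 q under 2, and replicate 2 had none. The shared primary transcript lncRNA:let7C (chr2L:18455717-18473132, plus strand) nevertheless held 10 optimal summits. The strongest had a signal of 3265 (rank 257) at 18456258, 541 bp from the transcript's annotated start and 15776 bp upstream of let-7. Its peak ranked 219, 158 and 455 in replicates 1, 2 and 3, with signals of 990, 1348 and 925, and so was among the strongest 500 in each. A rule based on the hairpin misses this peak, which lies near the start of the let-7 transcript though not within 500 bp of it.

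**Figure D4:**
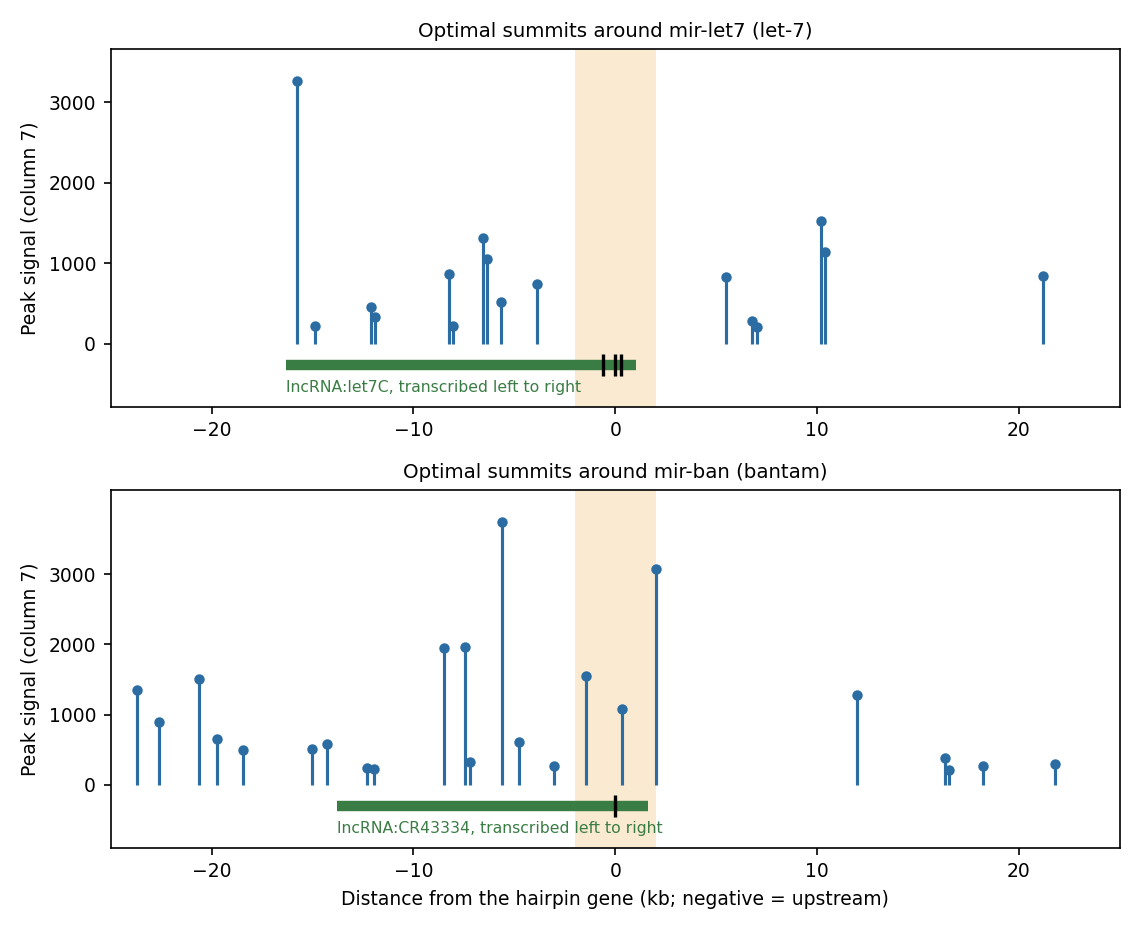
Optimal summits within 25 kb of mir-let7 (top) and mir-ban (bottom): signal in column 7 (vertical axis) against distance from the hairpin gene in kb, negative upstream; green bars are the host transcripts, black ticks the hairpins of the locus and the shaded band the 2 kb on either side. The let-7 band is empty and its strongest peak (3265) is 541 bp from the start of lncRNA:let7C, while the bantam band holds peaks of 1548 and 1073.

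The starts of the non-coding host genes were therefore examined in their own right, after the let-7 and mir-279 values had been seen. Of 33 such genes, 10 (30.3%) had an optimal summit within 500 bp of an annotated start, against 14.5% of the named non-coding RNA genes other than microRNAs. In the replicate lists the counts were 10, 6 and 9, with no shares taken there for the other non-coding genes. The hosts had a median length of 6494 bp and a median of 1 start, with 4 at lncRNA:CR46006. The compared genes were not matched to them for length or number of starts. Within 2 kb of a start the count was 15 of 33 (45.5%), let-7's transcript included, against 34.5%. Besides the hosts of mir-279, mir-282, mir-8 and bantam, the 10 were those of mir-275, mir-31b, mir-276a, mir-184, mir-10 and mir-4951. The last is lncRNA:Hsromega, a heat-shock-induced nuclear RNA, with a summit of 1727 within 500 bp of a start, and its hairpin lay 13843 bp from any summit. The host of mir-276a, lncRNA:CR46006, had a summit of 1119. Start summits were weaker at the hosts of mir-275 (302), mir-31b (309), mir-184 (235) and mir-10 (230), all below the optimal list's median of 443. In replicate 2 the nearest summits stood 1338, 1139, 535 and 517 bp from starts of the hosts of mir-10, mir-31b, bantam and mir-276a. In replicate 3 the mir-10 host was at 1318 bp.

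Protein-coding host genes were longer than most genes, with a median of 14094.5 bp against 2166 bp for all protein-coding genes. Of 128 hosts, 41 (32.0%) had an optimal summit within 500 bp of an annotated start (41, 44 and 40 in the replicate lists), against 19.1% of all protein-coding genes. Among genes in the hosts' interquartile range of length, 3996.75 to 29776.2 bp, the counts were 23 of 64 hosts (35.9%) and 30.7% of genes that host no microRNA. Those genes were not matched for number of starts, of which hosts had a median of 2 and all protein-coding genes 1. Of the 41, 15 had a near hairpin, against 22 of all 128 hosts, and the hairpins of the other 26 lay beyond 2 kb from any summit. One summit can meet both criteria, as at Pfas with mir-966 and jigr1 with mir-92a, so these counts are not independent. Of the 62 near summits, 18 (29.0%) lay within 500 bp of a protein-coding start, against 22.9% of all optimal summits.

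Strong peaks away from any host start were found inside some protein-coding hosts. mir-9377 in Tis11, which encodes a protein of messenger RNA decay, had a summit of 1981 (rank 739; 726, 731 and 739 in the replicates) at 366 bp downstream of the hairpin and 5100 bp from any Tis11 start. mir-2491 in fog, a ligand that drives cell shape change, had one of 1890 (rank 798; 862, 761 and 821) at 149 bp upstream and 2527 bp from any fog start. Both were in the strongest 10% of the optimal list.

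mir-965, inside the chromatin remodeller gene kis, acts in the growth and spreading of abdominal histoblasts at metamorphosis. Its summit had a signal of 1394 (rank 1405; 1809, 1809 and 967 in the replicate lists) at 874 bp upstream of the hairpin, 6808 bp from any kis start. mir-9378 in CG17124 had 1344, mir-2493 in CG42788 had 1151, and mir-2492 in the kinase gene Drak had 1120. mir-4968 in Mob2 (914) and mir-4972 in for, a kinase that responds to cyclic GMP (836), followed. mir-4962 in Tlk was the 1 member with a summit inside the hairpin gene itself, of signal 434. Its strongest summit (806) lay within 500 bp of a Tlk start, unlike those of Tis11, fog and kis. mir-274, over a gene of the opposite strand, had 1073 at 541 bp upstream, and intergenic mir-2496 had 4 summits within 2 kb, the strongest at 1489.

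Several clusters shared a peak, so their hairpins are not separate observations. Of the 22 loci with 2 or more hairpins, 8 had a near member, 6 of these with every member near, and 14 had none. Of the 181 single hairpins, 30 were near. mir-310, mir-311, mir-312 and mir-313, which restrain Hedgehog signalling in the ovary, shared 1 downstream summit of 1509 (rank 1233; 1528, 1018 and 1352 in the replicates), which lay 436 bp from a start of the neighbouring gene qsm. It was 1184 bp from mir-310 and 1622 bp from mir-313, and the other 3 hairpins of that locus, mir-2498, mir-991 and mir-992, were beyond 2 kb. mir-275 and mir-305, the second of which links nutrition to intestinal stem cells, shared a summit of 828 (rank 2966; 3334, 2028 and 4347). The annotation puts mir-275 inside lncRNA:CR43857 and mir-305 just past its end, so the 2 fall in different classes although they form 1 cluster.

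The families with 6 or more hairpins of 1 seed and a near member were 2. Families without a near member were not listed, and 18.8% of all 260 members were near. All 6 hairpins with the mir-92 seed were near, through 3 distinct peaks. mir-92a and mir-92b, which act in larval brain neuroblasts, lay in jigr1 with signals of 1028 at 475 bp and 631 at 139 bp, and the stronger summit was 171 bp from a jigr1 start. The replicate ranks of the mir-92a peak were 2105, 1689 and 3090. Of 14 hairpins with the mir-2 seed, 7 were near, again through 3 peaks. mir-2a-1, mir-2a-2 and mir-2b-2 in spi, an EGF receptor ligand, shared a summit of 705 (rank 3601; 3714, 3937 and 3743), mir-2c, mir-13a and mir-13b-1 shared one of 486, and mir-308 in RpS23 had 380. mir-281-1 and mir-281-2 in Oda, 1 seed pair, shared a summit of 742.

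Large clusters of other kinds had no peak. The 12 hairpins of the mir-972 to mir-979 cluster on X lay at least 20236 bp from a summit, the 8 of the mir-309 cluster, which clears maternal messenger RNAs in the embryo, at least 28927 bp, and the 6 of the mir-959 to mir-964 cluster at least 17003 bp. Closest to the limit, mir-31b (1858 bp), mir-1012 (1902 bp) and mir-281-2 (1907 bp) fell inside it, and mir-2489 (2005 bp), mir-276a (2014 bp) and mir-bft (2057 bp) outside.

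Few of the 62 near windows of 101 bp held the motifs searched. TGTTTAC was found on either strand in 3 of 62 (4.84%) and in 2.23% of all 11665 optimal windows, and TGTTTAT in 2 (3.23%) and 4.98%. The forkhead motifs lay in weaker summits near mir-282, mir-2496, mir-92a and mir-4962 and in the shared summit of mir-281-1 and mir-281-2. TCGATA was found in 3 (4.84%) and in 3.73%, at mir-275 with mir-305 and at the spi cluster. The GC content of the near windows was 34.0% ± 8.56 and that of all windows 32.9% ± 8.74 (SD over windows).

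The genes that make and carry microRNAs were counted from a list of 14, of which 13 matched 1 gene. Optimal summits lay within 500 bp of a start of 2, AGO1 (signal 448) and r2d2 (1150), against 19.1% of all protein-coding genes, and both were found in all 3 replicate lists. Within 2 kb of the gene the count was 5 of 13, against 38.5% of all protein-coding genes. The others were pasha, the Drosha partner (4000 at 1809 bp), loqs, the Dicer-1 partner (2074 at 1783 bp), and Tailor, which adds uridines to hairpins (284 at 581 bp). drosha, Dcr-1, gw and AGO2 had none within 2 kb.

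Of 14 genes known as targets of single fly microRNAs, 13 matched and 8 had a summit within 500 bp of a start, against 19.1% of all protein-coding genes and 32.9% of the other protein-coding genes in the targets' range of length (4898 to 81215 bp). They were hid, the bantam target (2403), Gug (1695) and ush (464), targets of mir-8, aop, a target of mir-7 (1244), EcR, a target of mir-14 (973), Eip74EF, a target of mir-34 (668), ab, a target of let-7 (319), and ex, a target of mir-278 (268). The first 6 were bound in all 3 replicate lists and ab and ex in 2. Within 2 kb of the gene the count was 11 of 13, with ena, chinmo and tim added, against 38.5% of all protein-coding genes and 64.6% of those in that length range. The length range was chosen after the counts were seen, and the list is short, so both counts are descriptions. Of the hairpins that act on these 11, bantam and mir-8 were themselves near a summit. Not near were let-7, mir-125, mir-7 (3626 bp), mir-14 (3140 bp), mir-34 (10984 bp), mir-276a (2014 bp) and mir-278 (17882 bp).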

How the data were processed

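The authors deposited peak lists in narrowPeak format. Per the file headers and deposited notes, the dm6 lists hold a signal value per peak (column 7, scale not stated) and a −log10 q-value (column 9), for each replicate and for the 3 pooled, each against a control alignment not analysed here. Each of these lists has 30000 rows. The optimal list has 11665 rows, all found in the pooled list, and these are its rows of highest signal. The sources used here do not give the aligner, caller, depth or reproducibility cut-off, so the depth behind a peak is unknown. Per the labels, sonication sheared the chromatin.

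Genes came from Ensembl release 115 and mature sequences from RefSeq Release 6, both on dm6 coordinates; dm3 lists were not used. A summit is column 2 plus column 10. Distances run from the summit to the nearest base of a gene. Replicate lists were reduced to the optimal list's row number for counts. Scripts used Python 3.11.15, numpy 2.4.6 and pandas 2.3.3, and were tested on simulated summits. Shares have Wilson 95% intervals, and differences exact sign-flip permutation tests over 3 replicate lists. Members and lists were chosen with earlier results of these data known. Named are let-7, mir-100, mir-125, bantam, the 25 near members of highest signal with their cluster mates, the 3 on each side of 2 kb, and near genes of the pathway lists; others were chosen after their values were seen, as were the host-type split and host starts. Alternatives changed the distance, list, peak definition, host definition, replicates and unit.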

Additional observations from a re-analysis of the deposited data

How the results depend on the processing

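The 49 near members became 28 at 1 kb and 93 at 5 kb, and those also found in all 3 replicate lists became 24 and 80 in place of 43. The median signal near members stood at the 54.9th percentile at 5 kb, against 59.8 at 2 kb. With each replicate left out in turn, 44 to 45 members were near, the intergenic minus host-gene difference was -3.54 to -3.00 points, the microRNA minus other small RNA difference was -3.67 to -3.28 points (-8.49 with the optimal list), and 44 to 45 near members recurred in both other lists. Leaving out any 1 replicate thus moved the second difference by over 1.5 times, and leaving out replicate 1 or 3 also moved the first by that much (to -3.00, from -5.19). Peaks were not called anew. Only optimal peaks also found in both other replicates were kept, 9112 to 9502 of 11665. The list shrank each time, so these shifts cannot be assigned to any 1 replicate. The microRNA minus other small RNA difference was -1.86 points at 1 kb and -1.99 with the strongest 50% of peaks, and its sign turned, to 11.7, against snRNA genes alone, a comparison chosen after seeing the data. Against intergenic genes in both sets it was -15.2, and against protein-coding-host genes in both sets -8.33, both also added. With loci in place of hairpins 38 of 203 were near (18.7%), against 98 of 294 loci of the other small RNA genes (33.3%), a difference of -14.6 points. By locus, the intergenic minus host-gene difference was -9.80 points (3 of 28 loci against 32 of 156). A locus counted as host-gene when any of its hairpins had a host, so the near intergenic mir-305 and mir-287 counted there. The locus of mir-124 and mir-287 was near only through mir-287. The classes by locus thus differ from those by hairpin, and -9.80 is not a like-for-like check of -5.19. The intergenic minus host-gene difference kept its sign under all alternatives run. No paired analysis was possible because there is 1 group. Whole animals of 1 transgenic line, an unknown depth and peaks shared by clustered hairpins limit every count.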
